A study of Mus musculus with 6 samples.

Results

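The interleukin-6 (IL-6) family and its signal path through gp130 were followed in colon tissue with tumors. The set held 10 genes, namely the ligands Il6, Il11, Lif and Osm, the receptor chains Il6st, Il6ra, Il11ra1 and Osmr, the transcription factor Stat3 and its feedback inhibitor Socs3. The members were all gene probes of the array that carried one of these symbols, which gave 19 probes for 10 of the 37325 genes on the array. Of these probes 12 were bright enough to be tested, and they covered 9 of the 19090 genes tested. Lif was the member without a tested probe.

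All mice were C57BL/6 with colitis-associated colon cancer, induced by azoxymethane (AOM, 10 μg/g), a carcinogen, and by 2% dextran sulfate sodium (DSS), which inflames the colon. RG@M-γ-CD, the multikinase inhibitor regorafenib (RG) enclosed in a mannose-modified γ-cyclodextrin, was given orally to 3 mice at a dose of 30 μg/g complex, which held 10 μg/g RG, and 3 mice received PBS. Treatment lasted 21 days and was followed by 14 days of observation before the colons were taken. Both groups thus shared the strain, the carcinogen, the DSS and the schedule. They did not share the state of the colon, as the study reported milder colitis and fewer, smaller tumors with RG@M-γ-CD. The part of these differences in the values below was not tested. Each mouse had 1 one-color array, and the age and sex of the mice were not used here.

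IL-6 family cytokines bind a receptor chain of their own, which then joins gp130, the shared chain encoded by Il6st. The associated Janus kinases phosphorylate STAT3, which enters the nucleus and activates acute-phase, survival and proliferation genes, among them Socs3, whose product shuts the receptor off again. In the colon this path is known for its role in epithelial repair and in tumors that grow in inflamed mucosa, and macrophages, neutrophils and stromal cells are known sources of its ligands.

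The arrays measured each transcript with probes of 60 bases on the sense strand of the gene, and the first 30 bases of the probes that carry the results are shown here, with coordinates of the whole probe in mm9, the build of the array annotation. The tested Osm probe, with the largest difference among members, lies at chr11:4140873-4140932 (+). The tested Osmr probes, whose estimates differed, lie at chr15:6763686-6763745 (-) and chr15:6804987-6805046 (-). The tested Il6st probes, whose estimates also differed, lie at chr13:113294595-113294654 (+) and chr13:113296586-113296645 (+), and the tested Il6 probe at chr5:30346367-30346426 (+). Whether probes of a gene truly differ was not tested. The exon or UTR that each probe reads was not analysed here.
Osm A_55_P2830665: gtctcagaagctggtgagcaattacttgga
Osmr A_51_P319460: attgcagatgctctgtttacattttcttgt
Osmr A_55_P2721494: gggtgtagacctaggaatctcattgctggg
Il6st A_55_P2917440: aaattcccaaaagttacttgccacagactg
Il6st A_51_P473888: atcttctcacagtaagcagtctagttatgg
Il6 A_55_P1997756: ctgttacctagccagatggtttcttggaat

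The share of probes for genes that stood well above background ranged from 49.6% to 55.2% by array, and 0 gene spots were saturated. All 10 markers of colon epithelium, Epcam and Cdx2 among them, were well above background on all 6 arrays. The 6 arrays lay on 1 slide, where row 1 held all RG@M-γ-CD arrays and PBS replicate 1 and row 2 held PBS replicates 2 and 3, so row and treatment were partly confounded. With slide row as a block, the log2 difference of a gene is therefore set by the RG@M-γ-CD mice and PBS replicate 1 alone. It repeats the difference within slide row 1 and is no separate check. A heat map in the supplementary material of the study sets RG@M-γ-CD replicates 2 and 3 with PBS replicate 1 on one side, which differs from the labels, and the labels were followed here. Smooth muscle markers set RG@M-γ-CD replicate 1 apart from the other mice of its group. Their summed intensity, in units of the 75th percentile of the array, was 98.8 in RG@M-γ-CD replicate 1 and 645 and 778 in replicates 2 and 3, against 190 to 222 in the PBS mice. In bulk tissue, fewer cells of a type and less RNA per cell cannot be told apart.

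In comparison with PBS, 0 of the 9 tested members changed at an adjusted p below 0.05 (limma with Benjamini-Hochberg adjustment over all genes), and the same held for 0% of all genes tested. At an unadjusted p below 0.05 the count was 2 of 9, against 2.19% of all genes, and both, Osm and Osmr, were lower in RG@M-γ-CD. Osm and Osmr were also the members whose groups did not overlap, which held for 4.57% of all genes. The members were chosen with earlier results of these data known, so these shares describe the set and do not test it. By sign alone 5 of 9 members were lower and 4 higher, while 52.7% of all genes were lower. The median log2 difference was -0.33 over the members and -0.012 over all genes. All levels below are log2 intensities minus the 75th percentile of their own array, and all differences are RG@M-γ-CD minus PBS with n = 3 mice in each group. Every tested member and every other pathway gene named had an adjusted p = 0.9999 (limma), so differences are given with their SE and 95% interval.

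**Figure D1:**
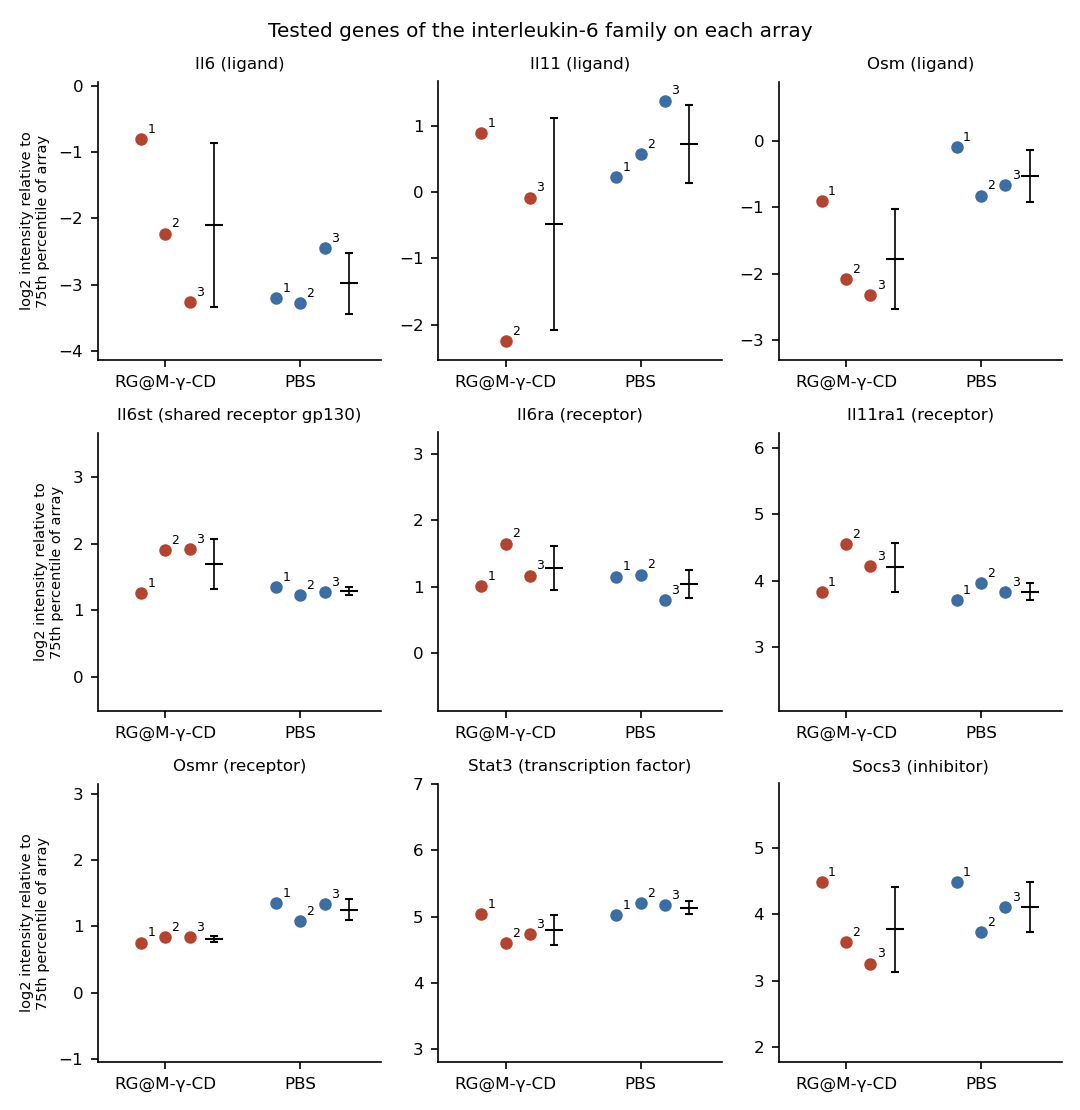
Level of each tested member on every array, as log2 intensity relative to the 75th percentile of the array (y axis, each panel spanning the same range), for the RG@M-γ-CD and PBS mice (x axis). Points are single mice with their replicate numbers, and the bar beside them is the mean ± SD (n = 3). The Osm and Osmr points of the groups do not overlap, and those of the other 7 genes do.

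Among the ligands, oncostatin M (Osm), a cytokine made mainly by myeloid cells that acts on stromal and epithelial cells, differed most. Its level was -0.91, -2.08 and -2.32 in the RG@M-γ-CD mice and -0.090, -0.82 and -0.67 in the PBS mice. All RG@M-γ-CD mice were below all PBS mice, and replicate 1 lay nearest to the controls. The means were -1.77 ± 0.75 (SD, n = 3) and -0.53 ± 0.39 (SD, n = 3). The log2 difference was -1.24 (SE 0.41, 95% interval -2.22 to -0.26), or a ratio of 0.423 (95% interval 0.214 to 0.833). The other Osm probe was not above background on any array.

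Of the members, Osm came closest to the adjusted threshold in the fits that left out 1 mouse. Without RG@M-γ-CD replicate 1 its log2 difference was -1.67 (adjusted p = 0.0591, limma), against an adjusted p = 0.9999 with all arrays. Among all genes, leaving out that mouse moved the share below an adjusted p of 0.05 from 0% to 1.06% and the share below an unadjusted p of 0.05 to 12.5%. In the same fit 6 of 9 members lay below the unadjusted threshold, namely Il11, Osm, Il6st, Il11ra1, Stat3 and Socs3, and 0 of 9 below the adjusted one. Within slide row 1, where PBS is a single mouse, the Osm difference was -1.68. Its error draws on the spread of the RG@M-γ-CD mice, moderated by limma over all genes, and on no spread among PBS mice.

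Markers of macrophages, a cell type known to make Osm, were low in 2 of the 3 RG@M-γ-CD mice. The summed level of the 8 macrophage markers, which include Adgre1 and Csf1r, was 26.8, 12.2 and 12.1 in the RG@M-γ-CD mice and 24.6, 19.8 and 23.1 in the PBS mice, and all 8 were above background on all arrays. RG@M-γ-CD replicates 2 and 3 were lowest in both these markers and Osm, while replicate 1 had the highest sum of all mice and an Osm level below every PBS mouse. The summed neutrophil markers ranged from 46.8 to 100 and from 59.3 to 104, with 7 of 8 above background on at least 1 array and Ngp on none. Gene by gene, 6 of 7 tested neutrophil markers were lower with RG@M-γ-CD, at a median log2 difference of -1.11, and the exception was Csf3r (0.064), which weighs heavily in the sum. The part of these markers in the Osm result was not tested.

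Il6, the founding member of the family and a driver of the acute-phase response, stood at -0.80, -2.23 and -3.26 in the RG@M-γ-CD mice and at -3.20, -3.28 and -2.45 in the PBS mice. RG@M-γ-CD replicate 1 was highest of all mice, and replicate 3 of that group lay within the PBS range. Treated and control mice differed by 0.88 on the log2 scale (SE 0.61, 95% interval -0.59 to 2.35), and by 0.23 once RG@M-γ-CD replicate 1 was left out. As a ratio the interval runs from 0.663 to 5.11 times the PBS level. Another Il6 probe, 208 bases upstream, was above background on 2 of 3 arrays of each group and was not tested.

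Il11, a cytokine that stromal cells of the gut release, varied most among the RG@M-γ-CD mice. Its level was 0.88, -2.25 and -0.087 with RG@M-γ-CD and 0.22, 0.57 and 1.37 with PBS. RG@M-γ-CD replicate 2 was the lowest mouse, and replicate 1 lay inside the PBS range. The log2 difference of -1.20 (SE 0.79, 95% interval -3.10 to 0.69) became -0.32 when RG@M-γ-CD replicate 2 was left out and -1.89 when replicate 1 was. Leukemia inhibitory factor (Lif) was well above background in 1 of 3 mice of each group, so no difference is given for it.

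The receptor chains were measured more evenly across mice than the ligands. Il6st, which encodes gp130, gave 1.26, 1.91 and 1.92 in the RG@M-γ-CD mice and 1.35, 1.23 and 1.27 in the PBS mice. Replicates 2 and 3 of RG@M-γ-CD were above every PBS mouse, and replicate 1 was among them. Its log2 difference was 0.41 (SE 0.22, 95% interval -0.12 to 0.94). A second tested Il6st probe, dimmer with means of -2.61 and -2.64, gave 0.022 (SE 0.19), and its groups overlapped.

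Il6ra, the specific receptor of IL-6, showed 1.01, 1.65 and 1.17 in the RG@M-γ-CD mice and 1.15, 1.18 and 0.80 in the PBS mice. The groups overlapped, with RG@M-γ-CD replicate 2 highest. The difference on the log2 scale was 0.23 (SE 0.22, 95% interval -0.31 to 0.77), and 0.045 without that mouse. Il11ra1, the specific receptor of IL-11, gave 3.82, 4.55 and 4.22 against 3.71, 3.96 and 3.82, with a log2 difference of 0.37 (SE 0.22, 95% interval -0.17 to 0.90). RG@M-γ-CD replicates 2 and 3 were above all PBS mice. Il11ra1 has a near-identical copy in the mouse, Il11ra2, which no probe of the array names, so the signal may come from both.

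Il6st, Il6ra and Il11ra1 were highest in RG@M-γ-CD replicate 2 or 3, the mice with the highest smooth muscle markers. All 7 markers of that list, such as Acta2 and Myh11, were above background on all arrays and had a higher mean with RG@M-γ-CD, by a median of 0.96 on the log2 scale, and 0 of 7 had an unadjusted limma p below 0.05. Their part in the receptor values was not tested.

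Osmr, the chain that joins gp130 to bind oncostatin M, was the receptor whose groups did not overlap. Its level was 0.76, 0.84 and 0.84 in the RG@M-γ-CD mice and 1.35, 1.08 and 1.34 in the PBS mice. All RG@M-γ-CD mice were below all PBS mice, with little spread among themselves. The log2 difference was -0.44 (SE 0.15, 95% interval -0.81 to -0.074), or a ratio of 0.736 (95% interval 0.570 to 0.95), and fits that left out 1 mouse each gave between -0.53 and -0.39. The second tested Osmr probe was above background in 3 of 3 RG@M-γ-CD and 2 of 3 PBS mice. It was far dimmer, with means of -3.17 and -3.28 against 0.81 and 1.25 for the first probe. This dim probe gave 0.11 (SE 0.61), and the mean of both probes gave -0.17 (SE 0.35). The difference thus rests on 1 of the 2 tested probes, and the other had an error too wide to show a difference of that size.

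**Figure D2:**
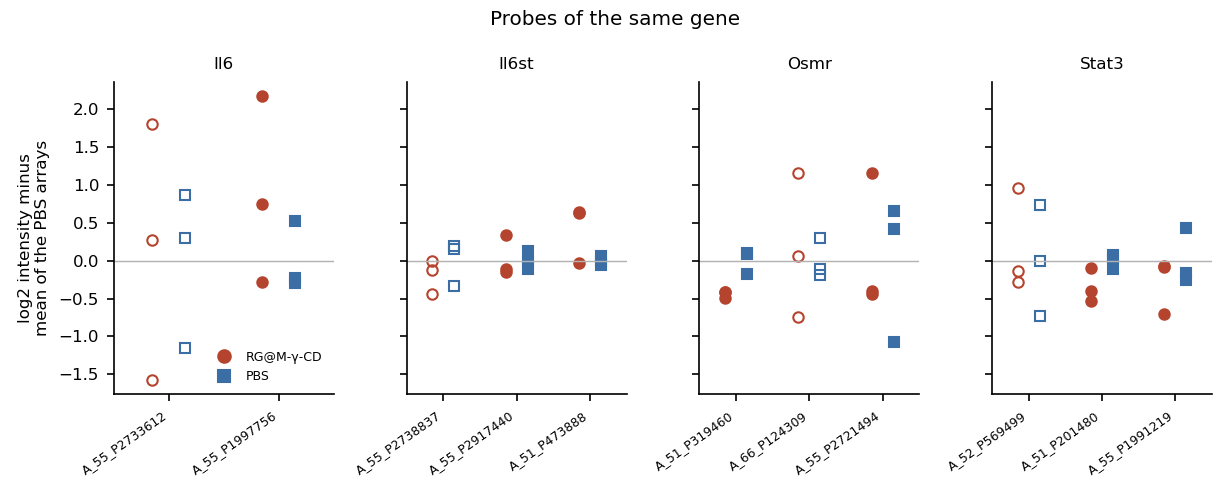
Values of single probes of the 4 genes with a second probe above background on some arrays, as log2 intensity minus the mean of the PBS arrays for that probe (y axis), with probe names on the x axis. Points are single mice, filled for tested probes and open for probes that were too dim to test. The Osmr probe A_51_P319460 separates the groups, and the other Osmr probes spread across both.

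Stat3, the transcription factor of the path, had a level of 5.04, 4.60 and 4.74 in the RG@M-γ-CD mice and 5.02, 5.21 and 5.17 in the PBS mice. RG@M-γ-CD replicates 2 and 3 were below all PBS mice, and replicate 1 was just above the lowest of them. Stat3 thus differed by -0.34 on the log2 scale (SE 0.17, 95% interval -0.76 to 0.080). Another tested Stat3 probe was far dimmer, with means of -2.47 with RG@M-γ-CD and -2.18 with PBS. It gave -0.29 (SE 0.27), in the same direction, and its groups overlapped. These are transcript levels, and the phosphorylation that activates STAT3 was not measured on the arrays.

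Socs3, the inhibitor that STAT3 induces, stood at 4.48, 3.58 and 3.26 with RG@M-γ-CD and at 4.48, 3.73 and 4.11 with PBS. The groups overlapped, and replicate 1 was the highest mouse of each. Its log2 difference was -0.33 (SE 0.36, 95% interval -1.20 to 0.53), with -0.69 once RG@M-γ-CD replicate 1 was left out and -0.077 once replicate 3 was.

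**Figure D3:**
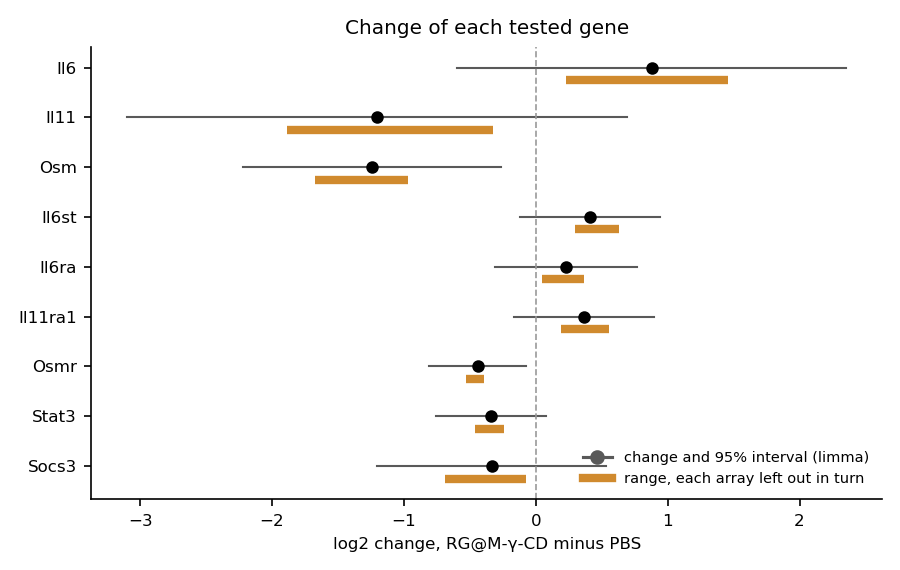
Log2 difference of each tested member, RG@M-γ-CD minus PBS (x axis), with genes on the y axis. Black points and thin lines give the limma estimate and its 95% interval (n = 3 in each group), and thick lines give the range when each array is left out in turn. The intervals of Osm and Osmr lie below 0, the other 7 cross it, and no thick line crosses 0.

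By the sides of the supplementary heat map, 3 of 9 members did not overlap, against 24.8% of all genes. Il11 (log2 difference -1.64) and Stat3 (-0.35) were lower and Il6st (0.47) was higher on the side that holds RG@M-γ-CD replicates 2 and 3 and PBS replicate 1. Osm and Osmr, which separated by the labels, overlapped between the sides. These sides follow from values of the same arrays and were not tested.

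Across the 6 arrays, the 5 genes whose levels followed Il6 most closely were Zfp423 (Pearson r = 0.976), an unnamed transcript read by probe A_30_P01032938 (0.974), Snhg16 (0.970), A930037O16Rik (0.967) and Ern1 (0.957), chosen among all genes tested. Within the family, r ranged from -0.97 for Il11 with Il6ra to 0.87 for Il11 with Stat3. Osm correlated with Socs3 at 0.85 and with Il6st at -0.90. The 6 points of each correlation share the 2 treatment groups and the differences in tissue composition given above, and the values are descriptions only.

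Of the other ligands and receptors that use gp130 or belong to its receptor family, 7 of 13 listed genes were tested, and 0 of 7 passed the adjusted threshold. In RG@M-γ-CD 4 were lower and 3 higher, with a median log2 difference of -0.0095. Il27ra, a receptor chain that joins gp130 to bind interleukin-27, was -2.03, -2.26 and -2.53 in the RG@M-γ-CD mice and -1.03, -1.78 and -1.85 in the PBS mice. The groups did not overlap, and the log2 difference was -0.72 (SE 0.27, 95% interval -1.38 to -0.072). It was -0.46 without PBS replicate 1 and -1.25 with slide row as a block, which leaves PBS replicate 1 as the only control. Ebi3, a subunit of interleukin-27, gave -0.54 (SE 0.26, 95% interval -1.15 to 0.083), and its groups overlapped. Lifr, the receptor of leukemia inhibitory factor, gave 0.12 (SE 0.16; 0.021 without RG@M-γ-CD replicate 2), and its groups overlapped. Clcf1, Ctf2, Il31, Cntfr and Il31ra were well above background on 1 array at most, and no probe named Il11ra2.

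All 12 listed genes of signal transduction, feedback and receptor shedding were tested, 9 lower and 3 higher, with a median log2 difference of -0.070, and 0 of 12 passed the adjusted threshold. Socs1, an inhibitor of Janus kinases, was -0.19, -0.50 and -0.45 in the RG@M-γ-CD mice and 0.97, -0.11 and 0.48 in the PBS mice. All RG@M-γ-CD mice were below all PBS mice, and the log2 difference was -0.83 (SE 0.29, 95% interval -1.53 to -0.13). With slide row as a block, which leaves PBS replicate 1 as the only control, the Socs1 difference was -1.35. Pias3, an inhibitor of STAT3, also separated the groups and was higher with RG@M-γ-CD, by 0.34 (SE 0.15, 95% interval -0.019 to 0.71). Gab1, an adapter protein, gave 0.32 (SE 0.19; 0.10 with slide row as a block), and its groups overlapped. With slide row as a block the split was 5 lower and 7 higher, with a median of 0.050. The median over all genes moved from -0.012 to 0.098 in that setting. The signs of this list thus depended on the setting, and the cause was not tested.

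Genes known to respond to STAT3 were lower in 19 of 21 cases, while 52.7% of all genes were lower. The median log2 difference was -0.40, and 0 of 21 passed the adjusted threshold. At an unadjusted p below 0.05 there were 5 of 21, against 2.19% of all genes, and in 5 of 21 the groups did not overlap, against 4.57% of all genes, all lower with RG@M-γ-CD. The list was chosen with earlier results of these data known, so these shares describe it and do not test it. With slide row as a block, which leaves PBS replicate 1 as the only control, 13 of 21 were lower. In that setting the median was -0.49 over the list and 0.098 over all genes. When RG@M-γ-CD replicate 2 was left out, 16 of 21 were lower. The count below the unadjusted threshold was 12 of 21 when RG@M-γ-CD replicate 1 was left out, where 12.5% of all genes lay below it. With the methods' t-test it was 3 of 21, against 1.99% of all genes, and 0 of 21 passed the adjusted threshold in each. Leaving out a single mouse moved the median to -0.75 (RG@M-γ-CD replicate 1), -0.60 (PBS replicate 1) or -0.31 (RG@M-γ-CD replicate 2). The 2 higher genes were Junb and Mcl1.

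Of the STAT3-responsive list, Reg3b, Reg3g, Lrg1 and Lcn2 had the largest differences. Reg3b, an antimicrobial lectin of the gut epithelium, was 0.79, -2.87 and 2.84 in the RG@M-γ-CD mice and 4.51, 6.16 and 5.22 in the PBS mice. Every treated mouse was below every control, and the log2 difference was -5.05 (SE 1.37, 95% interval -8.35 to -1.74). Its relative Reg3g was 2.15, 1.15 and 3.24 against 5.20, 6.13 and 5.58, a log2 difference of -3.46 (SE 0.54, 95% interval -4.75 to -2.16). Fits that left out 1 mouse gave -6.34 to -3.49 for Reg3b and -3.99 to -2.94 for Reg3g. Both genes are also known from the exocrine pancreas, and markers of that tissue were uneven. Their summed level was 0.106 to 0.296 in the RG@M-γ-CD mice and 0.259, 6.42 and 0.372 in the PBS mice, and 0 of 6 were above background on all arrays. PBS replicate 2, with the highest sum, also had the highest Reg3b and Reg3g, and without it their differences were -4.62 and -3.21. The part of these markers in the Reg3b and Reg3g values was not tested.

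Lrg1, a secreted glycoprotein of the acute phase, was 3.78, 1.43 and 2.93 in the RG@M-γ-CD mice and 4.63, 4.73 and 5.45 in the PBS mice. The groups did not overlap, and the log2 difference was -2.22 (SE 0.59, 95% interval -3.65 to -0.80). Lcn2, an iron-scavenging protein of neutrophils and inflamed epithelium, was 4.57, 1.70 and 3.20 against 4.62, 4.86 and 5.64, with a log2 difference of -1.88 (SE 0.71, 95% interval -3.59 to -0.18). Leaving out RG@M-γ-CD replicate 2 gave -1.15, and leaving out replicate 1 gave -2.59. RG@M-γ-CD replicate 2 was lowest for Reg3b, Reg3g, Lrg1 and Lcn2. Of the neutrophil markers, S100a8 and S100a9 were lowest in the same mouse, at -2.24 and 0.95, against 1.33 to 3.56 and 4.07 to 5.06 in the PBS mice, while Csf3r was highest there, at 6.25, and the summed level of the list was 80.0. The part of these markers in these values was not tested.

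**Figure D4:**
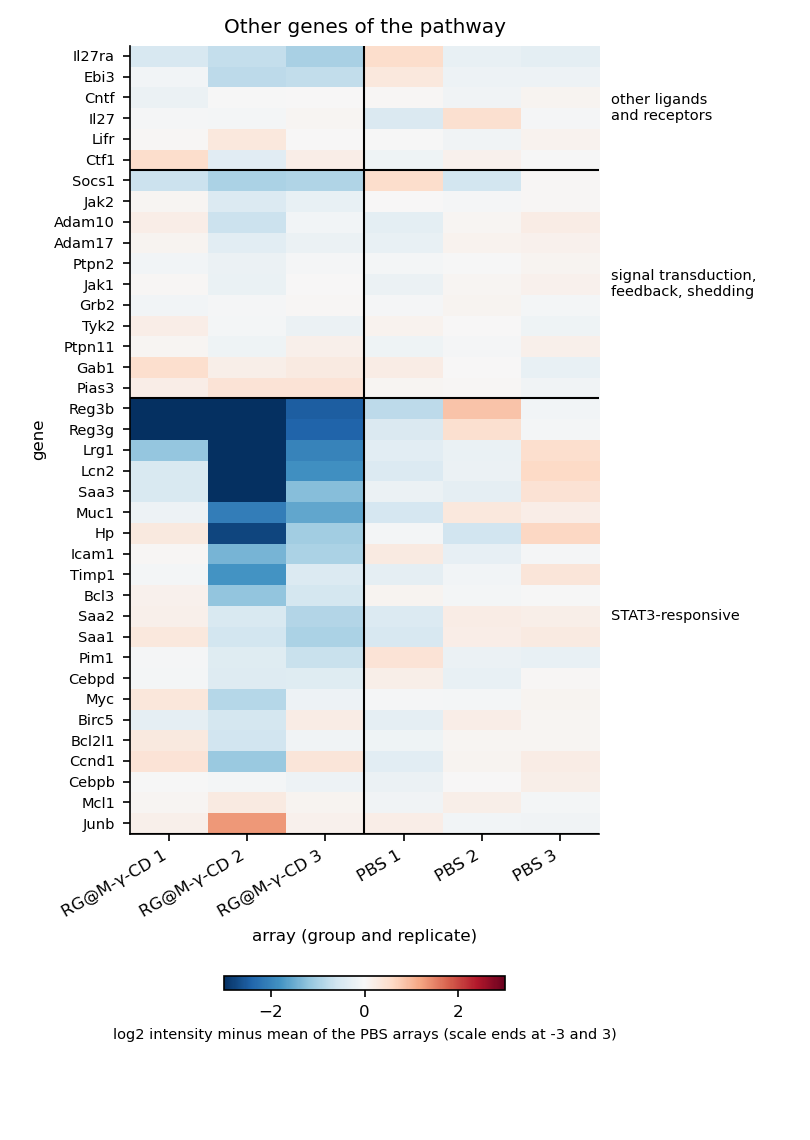
Level of the tested pathway genes on every array, as log2 intensity minus the mean of the PBS arrays (color, blue lower and red higher, ends at -3 and 3), with genes in rows by list and mice in columns. The 19 lower STAT3-responsive genes include Reg3b and Reg3g, blue in all 3 RG@M-γ-CD mice, and others such as Hp that are blue mainly in replicates 2 and 3.

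The palindrome TTCNNNGAA, a form of the site that STAT proteins bind, was searched in the 250 bases before the RefSeq starts (GRCm38.p6). The search covered all promoters, the members and the STAT3-responsive genes. As the motif reads the same on both strands, each window was searched once. It was in 7.02% of 32851 windows, or 8.13% of genes with a window. Among the members 1 of 9 genes with a window held it (11.1%), Socs3 at chr11:117969367-117969616 (-). Among the STAT3-responsive genes 2 of 17 did (11.8%), Reg3b at chr6:78370635-78370884 (+) and Icam1. The windows of Reg3g, Lrg1 and Lcn2 held no match. The match began at base -154 from the start in Socs3 and at -129 in Reg3b, and it is in capitals in both windows.
Socs3: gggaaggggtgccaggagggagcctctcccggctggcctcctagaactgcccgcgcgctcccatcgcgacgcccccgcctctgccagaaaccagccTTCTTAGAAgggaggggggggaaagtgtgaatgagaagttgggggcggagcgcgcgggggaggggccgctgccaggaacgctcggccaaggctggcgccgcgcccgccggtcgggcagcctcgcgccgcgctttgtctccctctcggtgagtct
Reg3b: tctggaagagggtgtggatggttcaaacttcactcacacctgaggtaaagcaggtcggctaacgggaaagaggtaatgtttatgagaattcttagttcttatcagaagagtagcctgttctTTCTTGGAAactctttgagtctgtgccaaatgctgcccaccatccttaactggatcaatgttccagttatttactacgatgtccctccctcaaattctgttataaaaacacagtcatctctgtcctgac

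A match of these letters describes the sequence and does not show binding in this tissue.

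**Figure D5:**
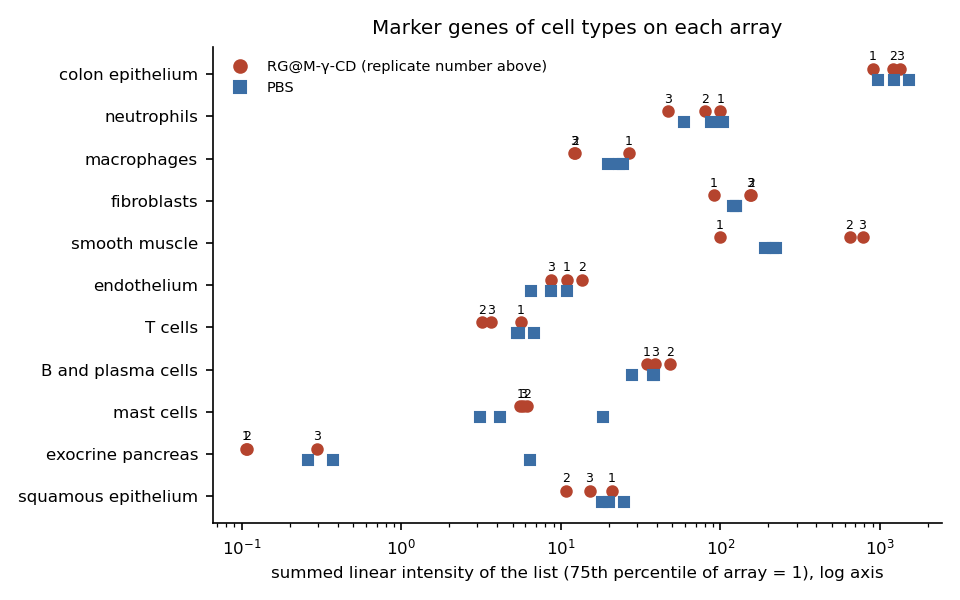
Summed linear intensity of each cell type marker list on every array (x axis, log scale, 75th percentile of the array set to 1), with lists on the y axis. Circles are RG@M-γ-CD mice with their replicate numbers and squares are PBS mice. Smooth muscle sums of RG@M-γ-CD replicates 2 and 3 (645 and 778) lie above all PBS mice and that of replicate 1 (98.8) below them, and the exocrine pancreas sum of PBS replicate 2 (6.42) lies above the other 5 mice.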

How the data were processed

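Colon tissue with tumors from 3 RG@M-γ-CD and 3 PBS mice was measured on one-color Agilent SurePrint G3 mouse arrays, 1 array per mouse, grouped by the sample labels. The authors deposited spot intensities from Agilent Feature Extraction 10.7.1.1, from which background had been subtracted and which were not scaled across arrays. They also deposited log2 values for each probe, in columns that share the same distribution.

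In R 4.3.3 (with data.table, version 1.17.8) the log2 intensities of 56605 gene probes were set relative to the 75th percentile of each array, without control and outlier spots. Symbols were updated through accessions for 32994 probes and 23611 kept the name in the file. A probe counted as well above background when this was marked for a share of 0.5 or more of its spots, and was tested when it did so on all 3 arrays of either group. Each gene was represented by its brightest tested probe. Group differences came from lmFit and eBayes of limma 3.58.1, with p-values adjusted over all 19090 genes (Benjamini-Hochberg, threshold 0.05). The precision is limited by the 3 arrays a group, and an exact permutation test of 3 against 3 cannot go below p = 0.10. The fit was tested on simulated data.

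The members and gene lists were chosen with earlier results of these data known. The text names all members, up to 4 genes with the smallest p of each pathway list, the 5 genes most correlated with Il6 and defining markers. Some of these are not reported here, though the counts and medians of their lists include them. Junb, Mcl1, Hp and Icam1 were named after their values were seen. Other settings tried were quantile normalization, normexp (offset 50), the deposited log2 values, another filter on dim probes (none, or all 6 arrays), averaging the tested probes of a gene, keeping outlier spots, the replicate number or slide row as a block, slide row 1 alone, the methods' t-test and leaving out each array. Promoter windows came from RefSeq (GRCm38.p6), and no mm9 annotation was used here.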

Additional observations from a re-analysis of the deposited data

How the results depend on the processing

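No member passed the adjusted threshold in any of the settings tried (0 called in each). All 153 estimates of the log2 difference of the 9 tested members kept the direction and side of the threshold of the value reported. Many of them could not differ in direction. The replicate block and the methods' t-test leave the difference as it is, and the other filters and kept outlier spots left the members' differences unchanged. The slide row block repeats slide row 1, and the deposited log2 values nearly repeat quantile normalization. Lif could be fitted only without a filter on dim probes. The number of members below an unadjusted p of 0.05 was 2, beside 2.19% of all genes. It was 0 without PBS replicate 1, beside 2.36% of all genes, and 6 without RG@M-γ-CD replicate 1, beside 12.5%. At a fold change of 2 with an unadjusted p of 0.05, as the methods set them, limma called 107 genes, 1 of them a member, and the methods' t-test 45, of which 0 were members, and 0 after Benjamini-Hochberg adjustment; normexp gave 46. Leaving out RG@M-γ-CD replicate 1 gave 206 called genes where all arrays gave 0. Leaving out each mouse gave differences of -1.67 to -0.97 for Osm, 0.23 to 1.46 for Il6, -1.89 to -0.32 for Il11, 0.30 to 0.63 for Il6st, 0.045 to 0.36 for Il6ra, 0.19 to 0.55 for Il11ra1, -0.53 to -0.39 for Osmr, -0.46 to -0.24 for Stat3 and -0.69 to -0.077 for Socs3. The median of the other gp130 ligands and receptors moved to 0.12 with slide row as a block, where the median over all genes moved from -0.012 to 0.098. It ranged from -0.23 (without PBS replicate 1) to 0.065 (without PBS replicate 2) when each mouse was left out. The median over all genes was -0.061 and 0.0087 in these fits, and the cause was not tested. Deviations of same-numbered mice from their group means correlated at r = -0.25, -0.23 and 0.14. Such deviations sum to 0 within each group, so these values cannot decide whether the labels' numbers pair the mice. With the replicate block 0 members were called and 1, Osm, lay below the unadjusted threshold, beside 2.43% of all genes. Dim signal left 7 of the 19 probes untested, 1 each of Lif, Il6, Osm, Il6st, Il6ra, Osmr and Stat3.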
